A study of Mus musculus with 19 samples.

Results

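The genes described here encode the protein folding and stress machinery of the endoplasmic reticulum (ER), the compartment in which secreted and membrane proteins are made. The 34 genes were taken from a fixed list and read from the table of raw counts by Ensembl identifier, and all 34 were found among the 31053 genes listed. By role they comprised 15 chaperones and folding enzymes, 7 genes of ER-associated degradation, 4 stress sensors and their transcription factors, 5 genes of the ATF4 branch and 3 genes of protein translocation into the ER. Their normalised expression was compared across the study groups, and the chaperones were set against the ATF4 branch.

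RNA was from whole livers of male C57BL/6 (strain label C57BL6J) mice that entered the study at 6 to 8 weeks of age. Each library is labelled a biological replicate. The PBS group (5 libraries) was vehicle-treated, and its labels do not say whether a vector was given. The TAA_GFP group (7 libraries) received thioacetamide (TAA), a hepatotoxin used to induce fibrosis, in increasing doses for 12 weeks and was injected with AAV8 TBG eGFP after 10 weeks. The TAA_miR group (7 libraries) received the same TAA course and AAV8 TBG miR34b/c, a combination of vectors for miR-34b and miR-34c. TBG is a hepatocyte-specific promoter, whereas the RNA came from all liver cells. Both AAV groups were sacrificed 4 weeks after injection, which was 2 weeks after the end of TAA. Both AAV groups had TAA and a vector, so the parts of TAA and of a vector in a difference from vehicle cannot be told apart. In whole liver RNA, fewer cells of a type and less RNA per cell cannot be told apart either.

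Libraries held 2214073 to 5208405 counts. Levels are given as normalised read counts (CPM, counts scaled to the library total after TMM normalisation), and because reads come from the 3′ end they are compared between groups and not between genes. Summed levels of 11 hepatocyte markers were 74169.6 to 94287 CPM in vehicle, 75287 to 82627 in AAV-GFP and 68076 to 109573 in AAV-miR-34b/c livers, with no marker at 0 in a group. Changes of single hepatocyte markers are given below with the markers of other cells. Before any comparison, 6 pairs of libraries within groups, holding 12 of the 19 libraries, were found to differ by a coefficient of variation under 0.2 beyond counting noise. They were vehicle replicates 1 and 4 and replicates 3 and 5, AAV-GFP replicates 1 and 2, and AAV-miR-34b/c replicates 1 and 2, 3 and 4, and 5 and 7. The labels name each library a biological replicate, so all were kept, and counts with the pairs summed (3, 6 and 4 samples) are given beside the results. Why the pairs are so alike was not tested.

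Cells respond to unfolded proteins in the ER through sensors in its membrane. IRE1 (*Ern1*) splices the *Xbp1* messenger RNA, ATF6 is cut to release a transcription factor, and PERK (*Eif2ak3*) phosphorylates eIF2 alpha, which lowers protein synthesis but favours translation of the factor ATF4. ATF6 and XBP1 mainly raise chaperone and degradation genes, whereas ATF4 raises genes of amino acid metabolism and of stress-induced cell death, and hepatocytes carry a large ER because they secrete most plasma proteins.

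Chaperone genes are known for a promoter motif, the ER stress response element (ERSE), spelled CCAAT, then 9 bases of any kind, then CCACG, and bound by ATF6 together with the factor NF-Y. RefSeq promoter windows of GRCm38.p6, from 250 bases before to 50 bases after the start site, were at hand for 29 of the 34 genes. *Manf*, *Hyou1*, *Derl1*, *Sec61a1* and *Atf6* were not among them. On either strand, the motif was present in 9 of these 29 genes, namely 7 chaperones and the degradation genes *Syvn1* and *Derl3*, and in 37 of 27025 genes with a window (0.137%). The sites are shown 5′ to 3′ on the strand that carries the motif, with its fixed bases in capitals, because they let the shared ends and the unlike spacers be read side by side.
Hspa5: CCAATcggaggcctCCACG
Hsp90b1: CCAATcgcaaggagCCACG
Hsp90b1: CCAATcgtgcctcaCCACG
Calr: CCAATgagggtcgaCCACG
Canx: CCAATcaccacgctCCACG
Pdia6: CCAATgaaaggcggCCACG
Dnajc3: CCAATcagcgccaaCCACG
Creld2: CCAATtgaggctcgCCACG
Syvn1: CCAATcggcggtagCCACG
Derl3: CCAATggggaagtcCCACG
*Hsp90b1* carried 2 sites, and the 9 bases between the fixed ends differed at every site. A match is a description of these letters and does not show that a factor is bound. Only this spelling was searched, so a window without a match can still hold another form of the element. The short end CCACG, which is part of the ERSE, occurred in 23 of the 29 genes and in 35.5% of all genes with a window.

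Other motifs were rare or not present. The ATF4 composite element TTGCATCA was found in the windows of *Herpud1* and *Chac1* and in 1.03% of all genes. Only this spelling was searched, so the other genes can still hold another form of an ATF4 element. Neither the XBP1 element TGACGTGG (0.714% of all genes), whose reverse strand contains CCACG, nor the cyclic AMP element TGACGTCA (2.03%) was in a window of the 29 genes, which says only that these letters are not there. The 250 bases before the start are shown for 4 genes whose results are described below, 2 with an ERSE and 2 with TTGCATCA, each on the strand of its gene with the motif in capitals. They lie at chr2:34771840-34772089 (*Hspa5*), chr15:88819396-88819645 (*Creld2*), chr8:94386179-94386428 (*Herpud1*) and chr2:119350992-119351241 (*Chac1*), all on the plus strand of GRCm38.p6.
Hspa5: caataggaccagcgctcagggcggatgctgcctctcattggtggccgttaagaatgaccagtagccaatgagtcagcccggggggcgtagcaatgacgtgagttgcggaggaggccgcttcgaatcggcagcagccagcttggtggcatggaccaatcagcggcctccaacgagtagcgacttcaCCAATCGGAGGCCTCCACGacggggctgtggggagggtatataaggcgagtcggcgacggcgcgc
Creld2: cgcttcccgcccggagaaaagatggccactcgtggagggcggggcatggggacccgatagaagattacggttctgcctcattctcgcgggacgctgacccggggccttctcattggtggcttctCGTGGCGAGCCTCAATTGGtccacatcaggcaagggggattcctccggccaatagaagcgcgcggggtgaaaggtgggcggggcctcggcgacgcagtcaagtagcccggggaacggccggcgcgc
Herpud1: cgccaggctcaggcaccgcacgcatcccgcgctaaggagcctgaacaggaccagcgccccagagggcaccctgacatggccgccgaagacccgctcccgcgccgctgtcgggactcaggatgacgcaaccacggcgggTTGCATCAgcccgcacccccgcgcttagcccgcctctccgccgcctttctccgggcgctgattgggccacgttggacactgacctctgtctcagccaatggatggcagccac
Chac1: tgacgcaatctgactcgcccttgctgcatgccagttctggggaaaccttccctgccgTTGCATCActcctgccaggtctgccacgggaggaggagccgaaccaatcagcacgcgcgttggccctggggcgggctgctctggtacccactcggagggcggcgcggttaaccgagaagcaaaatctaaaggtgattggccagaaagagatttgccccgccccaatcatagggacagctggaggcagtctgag
In *Creld2* the ERSE reads on the opposite strand of the gene, so its fixed ends appear as their reverse complements.

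The first comparison asked what TAA with the control vector changed relative to vehicle. In livers of AAV-GFP-injected mice, 5 of the 34 genes rose and 1 fell. Those that rose were 3 chaperones (*Hyou1*, *Pdia4*, *Manf*) and the core of the degradation ligase (*Syvn1*, *Sel1l*), by 1.56- to 2.06-fold, and *Asns* of the ATF4 branch fell. The share called, 17.6%, stood beside 12.7% of all 9522 genes tested (edgeR quasi-likelihood test, adjusted p under 0.05), and the higher calls stood beside 7.54% of all genes and the lower call beside 5.19%. The median log2 fold change was 0.25 over the 34 genes and -0.009 over all genes tested. With close pairs summed the count was 1 (*Pdia4*), beside 2.26% of all genes.

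The second comparison set TAA with AAV-miR-34b/c against vehicle. Here 11 of the 34 genes rose and 1 fell. Of the 15 chaperones, 8 rose and none fell, namely *Hspa5*, *Hsp90b1*, *Calr*, *Pdia4*, *Dnajc3*, *Creld2*, *Manf* and *Hyou1*, by 1.34- to 3.25-fold. *Sel1l*, *Sec61a1* and *Chac1* rose as well, and *Herpud1* fell. The share called, 35.3%, stood beside 21.9% of all 9290 genes tested, with 12.2% called higher and 9.75% lower. Over the 34 genes the median log2 fold change was 0.44, against 0.016 over all genes. With close pairs summed, 2 genes passed (*Hyou1* and *Sec61a1*), beside 3.12% of all genes. The log2 fold changes of the genes that lost their call there stayed near the values below, and their edgeR adjusted p ranged from 0.0548 (*Calr*, 0.87) to 0.208 (*Dnajc3*, 0.42).

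In the direct comparison of the vectors under TAA, 0 of 33 genes tested passed in edgeR, beside 3.36% of all 9252 genes (1.95% higher and 1.42% lower). An unadjusted p under 0.05 was reached by 5 of them, DESeq2 called 0, and limma-voom with sample quality weights called 3 (*Hsp90b1*, *Dnajc3* and *Sec61a1*, all higher), where it called 8.79% of all genes. With close pairs summed 0 of the members passed, where 0.832% of all genes did. The median log2 fold change of the 33 genes was 0.16, against -0.007 over all genes. The comparisons with vehicle share the vehicle libraries, so a gene that passed in only 1 of them was not thereby shown to differ between the vectors.

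**Figure D1:**
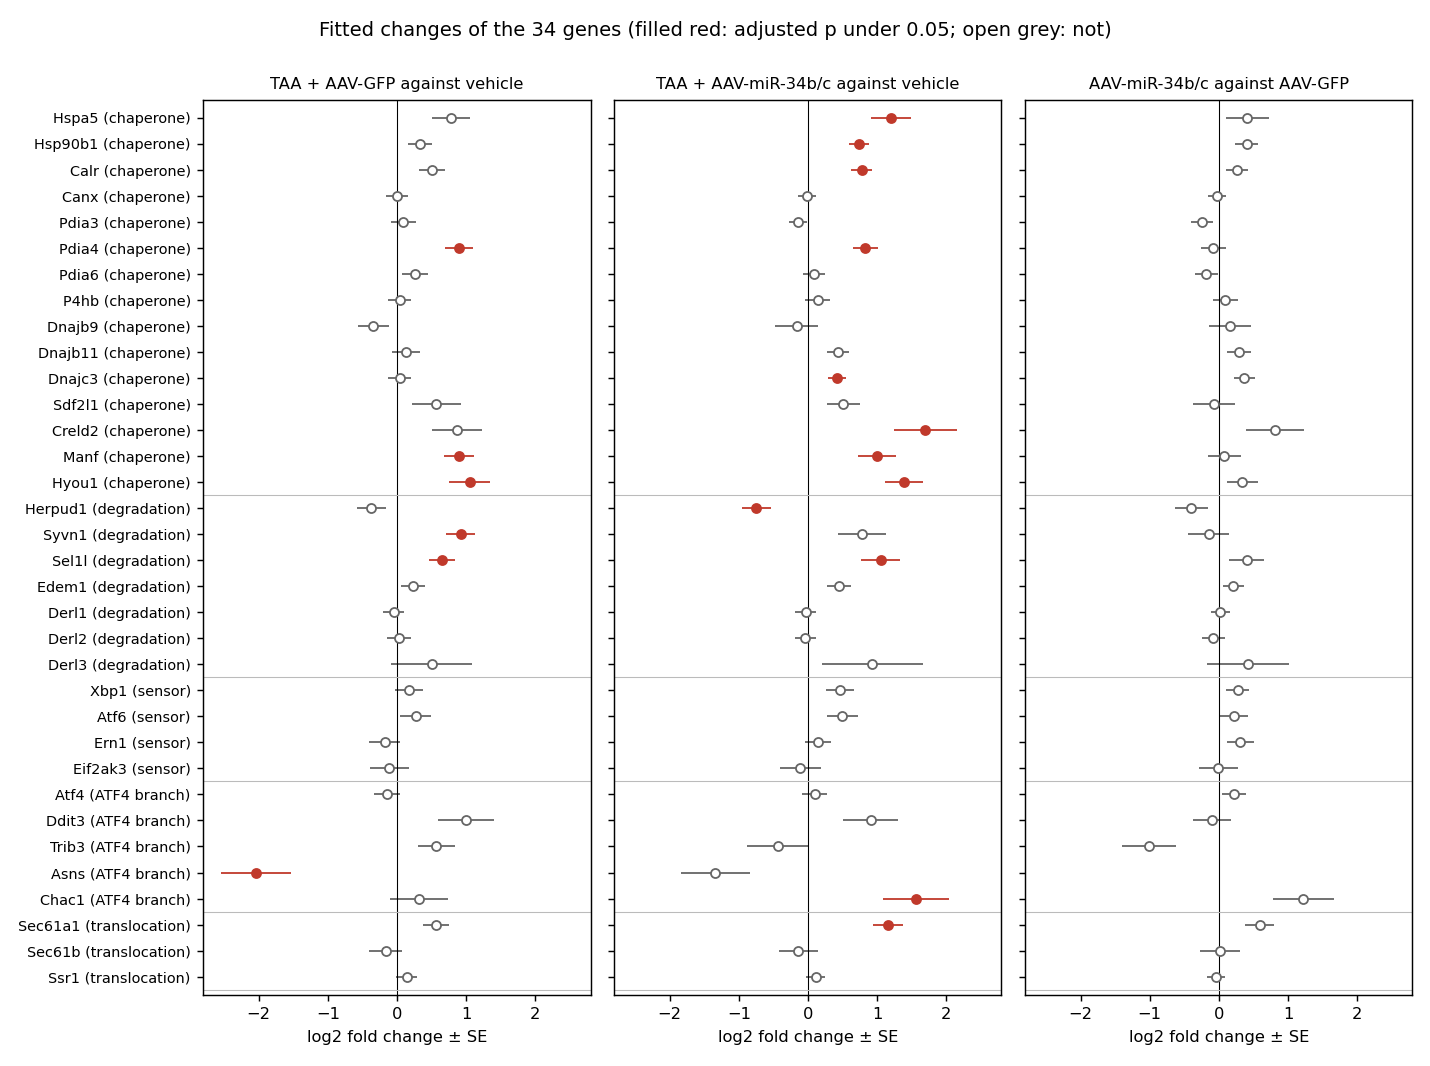
Fitted log2 fold changes (horizontal axis, points, with standard errors as bars) of the 34 genes in the 3 comparisons, 1 panel each, with the gene and its role on the vertical axis. Filled red points had an adjusted p under 0.05 in edgeR (6, 12 and 0 genes), and *Asns* has no point in the direct comparison of the vectors because it did not pass the filter on low counts there.

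Among the chaperones, *Hspa5* encodes BiP, the main HSP70 chaperone of the ER (chr2:34771970-34777547, plus strand, GRCm38). Its level was 889, 1178, 1119, 781 and 1057 CPM in vehicle replicates 1 to 5, from 918 through a median of 1434 to 3441 in AAV-GFP and from 1042 through 2113 to 3590.0 in AAV-miR-34b/c livers. In both AAV groups 5 of 7 libraries lay above every vehicle library, and in the AAV-miR-34b/c group replicates 5 (1084) and 7 (1042) lay within the vehicle range. *Hspa5* rose with AAV-miR-34b/c by 1.20 on the log2 scale (SE 0.29, edgeR adjusted p = 0.00806). With AAV-GFP the log2 fold change was 0.78 (SE 0.27, adjusted p = 0.0632), which did not pass. That call was close to the threshold, since *Hspa5* passed without AAV-GFP replicate 1 (0.89, adjusted p = 0.039), without AAV-GFP replicate 7 (0.83, adjusted p = 0.0412) and under 5 of 9 other settings. Between the vectors the difference was 0.41 (SE 0.31, adjusted p = 0.606).

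*Hsp90b1*, which encodes the HSP90 chaperone GRP94 (chr10:86690209-86705509, minus strand), had 579, 692, 506, 624 and 524 CPM in vehicle, 575 to 1027 (median 659.7) in AAV-GFP and 811 to 1155 (median 919) in AAV-miR-34b/c livers. Every AAV-miR-34b/c library lay above every vehicle library. It rose with AAV-miR-34b/c by 0.74 (SE 0.15, edgeR adjusted p = 0.00364), and the log2 fold change was 0.33 with AAV-GFP (SE 0.17, adjusted p = 0.205) and 0.40 between the vectors (SE 0.16, adjusted p = 0.195). *Calr* encodes calreticulin, a lectin chaperone that binds calcium and glycoproteins (chr8:84841850-84846934, minus strand). In vehicle livers it had 814, 610.4, 994, 761 and 811 CPM, in AAV-GFP livers 881 to 1818 (median 1090.0) and in AAV-miR-34b/c livers 1184 to 1512 (median 1388). Again the AAV-miR-34b/c and vehicle groups did not overlap. *Calr* rose with AAV-miR-34b/c by 0.78 (SE 0.15, edgeR adjusted p = 0.00195), whereas with AAV-GFP it was 0.51 (SE 0.19, adjusted p = 0.0845) and between the vectors 0.26 (SE 0.16, adjusted p = 0.481). For both genes the two-sided exact permutation p against vehicle was 0.00126 with AAV-miR-34b/c, the smallest that 792 splits of 7 and 5 libraries allow. *Pdia4* and *Hyou1* had the same value. For other members called there the exact permutation p was larger, such as 0.0215 (*Manf*), 0.0253 (*Hspa5*), 0.0303 (*Creld2*) and, the largest, 0.0455 (*Chac1*).

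*Hyou1* encodes GRP170, a large HSP70-like chaperone and exchange factor for BiP (chr9:44379490-44392369, plus strand). Vehicle livers had 4.83, 16.1, 10.2, 16.7 and 17.4 CPM, where 4.83 stood for 14 counts in replicate 1. AAV-GFP livers had 16.2 to 43.3 (median 25.4) and AAV-miR-34b/c livers 25.3 to 45.6 (median 34.3), and none of the latter overlapped vehicle. The rise was 1.39 with AAV-miR-34b/c (SE 0.27, edgeR adjusted p = 0.00231) and 1.05 with AAV-GFP (SE 0.30, adjusted p = 0.0265). The AAV-GFP call was lost without vehicle replicate 1 (0.84, adjusted p = 0.0666), vehicle replicate 3 (0.98, adjusted p = 0.057) or AAV-GFP replicate 3 (0.98, adjusted p = 0.0546), and the AAV-miR-34b/c call was kept whichever library was left out. Between the vectors the log2 fold change was 0.34 (SE 0.22, adjusted p = 0.50).

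*Pdia4* encodes the disulfide isomerase ERp72 (chr6:47796141-47813430, minus strand). It had 88.8, 91.2, 127, 99.1 and 135 CPM in vehicle, 149.6 to 288 (median 193) in AAV-GFP and 147 to 277 (median 179.9) in AAV-miR-34b/c livers. All libraries of both AAV groups lay above all vehicle libraries. It rose by 0.90 with AAV-GFP (SE 0.20, edgeR adjusted p = 0.00638) and by 0.83 with AAV-miR-34b/c (SE 0.18, adjusted p = 0.00477), and the difference between the vectors was -0.08 (SE 0.18, adjusted p = 0.895). It was the sole member with no overlap in the AAV-GFP comparison, where 2.59% of all genes lay wholly above vehicle and 2.19% wholly below. With AAV-miR-34b/c, *Hsp90b1*, *Calr*, *Pdia4* and *Hyou1* lay wholly above vehicle, 4 of 34, beside 3.96% of all genes, and *Herpud1* lay wholly below, 1 of 34, beside 3.82%.

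*Manf* encodes a secreted factor that is retained in the ER and binds BiP (chr9:106838312-106891979, minus strand). Its CPM was 46.6, 103, 67.8, 61.5 and 76.3 in vehicle, 91.5 to 192 (median 117) in AAV-GFP and 71.4 to 219.7 (median 157) in AAV-miR-34b/c livers. In each AAV group 5 of 7 libraries exceeded all vehicle libraries, and AAV-miR-34b/c replicates 5 and 7 were again the lowest of their group. *Manf* rose by 0.90 on the log2 scale with AAV-GFP (SE 0.22, edgeR adjusted p = 0.0111) and 2.0-fold with AAV-miR-34b/c (SE of log2 0.27, adjusted p = 0.0167), the latter lost without vehicle replicate 1 (log2 fold change 0.88, adjusted p = 0.0523). The difference between the vectors was 0.08 (SE 0.24, adjusted p = 0.921). The annotated gene shares 146 exonic bases with *Dcaf1* on the opposite strand, and the strand setting of the counting is not given in the sources used here, so some of its reads are uncertain.

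*Creld2* encodes an ER protein with isomerase-like activity whose promoter ERSE is printed above (chr15:88819646-88826683, plus strand). Vehicle livers had 7.25, 5.93, 15.1, 12.1 and 13.3 CPM, AAV-GFP livers 8.34 to 38.3 (median 15.5) and AAV-miR-34b/c livers 13.6 to 70.1 (median 17.7). The AAV-miR-34b/c group split widely, with replicates 3 (58.7), 4 (70.1) and 6 (51.7) high and the other four between 13.6 and 17.7. It rose with AAV-miR-34b/c by 1.70 (SE 0.45, edgeR adjusted p = 0.0141) and was at 0.87 with AAV-GFP (SE 0.36, adjusted p = 0.106) and 0.81 between the vectors (SE 0.42, adjusted p = 0.372). *Dnajc3* encodes P58IPK, a J-domain partner of BiP (chr14:118937976-118981697, plus strand). It had 236, 293, 283, 265 and 288 CPM in vehicle, 204 to 400.3 (median 287) in AAV-GFP and 291 to 402 (median 381) in AAV-miR-34b/c livers. Of the latter, 6 of 7 exceeded all vehicle libraries. *Dnajc3* rose by 0.42 with AAV-miR-34b/c (SE 0.13, edgeR adjusted p = 0.0298), the smallest change among the members called, and the call was lost without any 1 of vehicle replicates 1, 4 and 5 or AAV-miR-34b/c replicates 3, 4 and 6 (log2 fold changes 0.37 to 0.44, highest adjusted p 0.0885). With AAV-GFP it was 0.04 (SE 0.17, adjusted p = 0.895), a value whose sign depended on the setting, and between the vectors 0.37 (SE 0.15, adjusted p = 0.24).

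The other 7 chaperones passed in no edgeR comparison. *Canx*, the membrane-bound calnexin that the study used as a loading control on blots, had 329.6 to 479 CPM in vehicle, 330.1 to 519.6 in AAV-GFP and 343 to 418 in AAV-miR-34b/c livers. The folding oxidoreductases *Pdia3* (medians 534, 519.9 and 464 in the same order), *Pdia6* (258, 287 and 263) and *P4hb* (795, 817 and 809) likewise had closely placed medians with overlapping ranges. Of the BiP co-chaperones, *Dnajb9* had medians of 49.4, 32 and 48.8 and its lowest level was 12.6 CPM in AAV-miR-34b/c replicate 7, while *Dnajb11* had 53.8, 52.9 and 75. *Dnajb11* lay close to the threshold with AAV-miR-34b/c against vehicle (edgeR adjusted p = 0.0569), and DESeq2 and limma-voom, which called 9 chaperones each there, called it higher. *Sdf2l1*, a stress-inducible partner of such co-chaperones, had 28.3 to 79.6 CPM in vehicle, 32 to 177 in AAV-GFP and 54.3 to 108 in AAV-miR-34b/c livers. The groups overlapped for all 7 genes in every comparison.

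**Figure D2:**
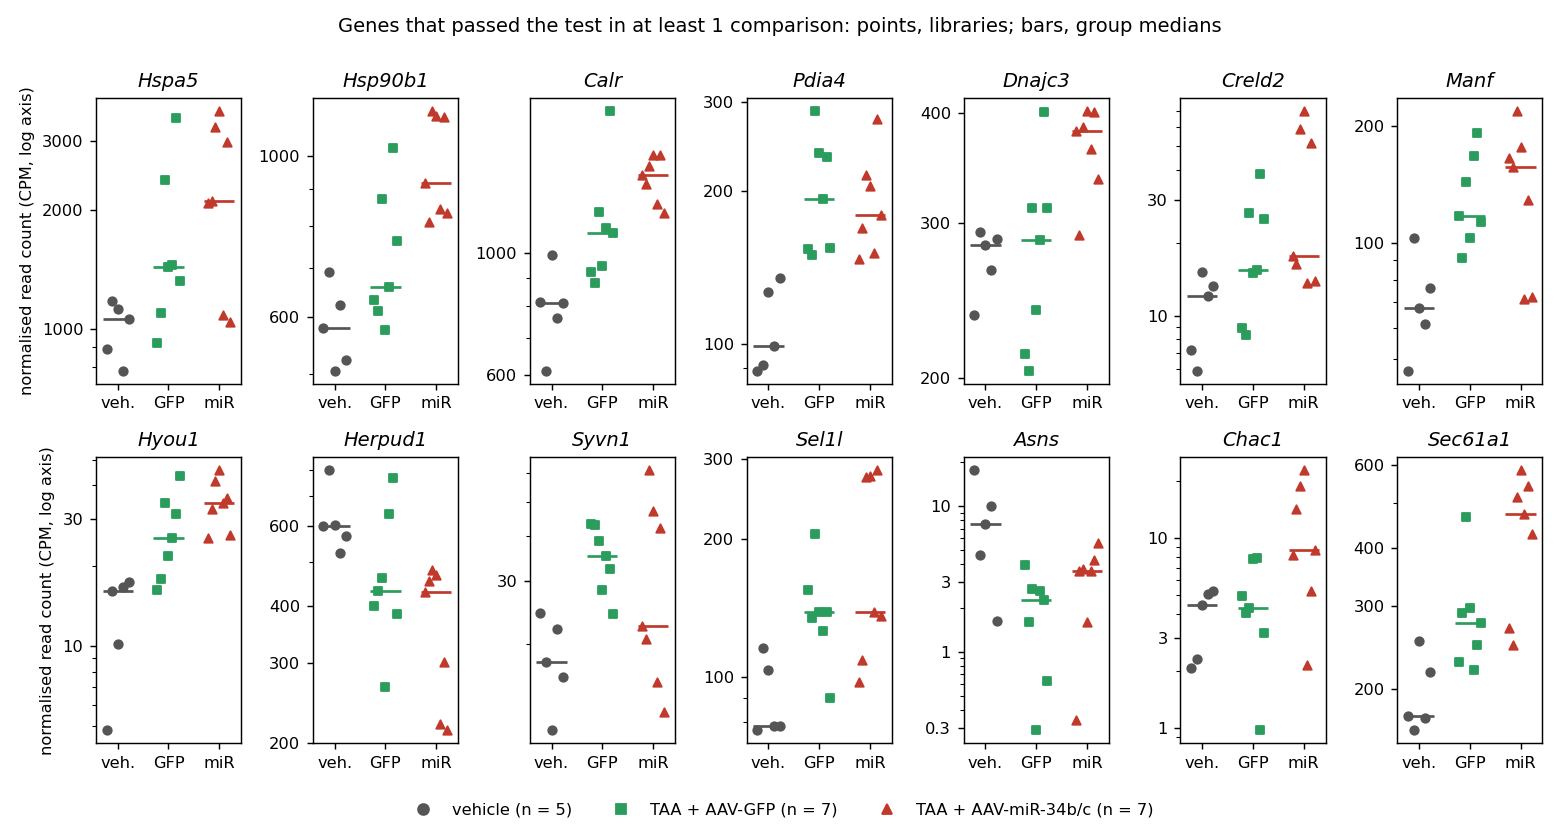
Normalised read counts (CPM, vertical log axes that differ between panels) of the 14 genes that passed in at least 1 comparison, with 1 point per library and a bar at the group median, with the 3 groups on the horizontal axis. *Pdia4* is above every vehicle library in both AAV groups, *Herpud1* is below vehicle in all 7 AAV-miR-34b/c libraries, and *Creld2* splits within the AAV-miR-34b/c group from 13.6 to 70.1 CPM.

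ER-associated degradation exports misfolded proteins to the proteasome. *Syvn1* encodes its membrane ligase HRD1 (chr19:6046576-6053712, plus strand) and had 24.5, 17.8, 11.5, 22 and 16.2 CPM in vehicle, 24.3 to 43.3 (median 35.2) in AAV-GFP and 12.9 to 61.2 (median 22.5) in AAV-miR-34b/c livers. In the AAV-GFP group 6 of 7 libraries exceeded all of vehicle, against 3 of 7 with AAV-miR-34b/c. It rose by 0.92 with AAV-GFP (SE 0.21, edgeR adjusted p = 0.00847), and was at 0.78 with AAV-miR-34b/c (SE 0.35, adjusted p = 0.116) and at -0.15 between the vectors (SE 0.29, adjusted p = 0.874). *Syvn1* shares 91 exonic bases with *Mrpl49* on the opposite strand, a gene of similar total count (1771 against 1851), so its counts are uncertain.

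*Sel1l* encodes the adaptor that holds HRD1 (chr12:91806043-91849157, minus strand). Its CPM was 76.7, 116, 104, 78.2 and 78.4 in vehicle, 90.4 to 206 (median 139) in AAV-GFP and 97.9 to 283 (median 139) in AAV-miR-34b/c livers. AAV-miR-34b/c replicates 3 (273), 4 (275) and 6 (283) were high, the same libraries that were high for *Creld2*. *Sel1l* rose by 1.05 with AAV-miR-34b/c (SE 0.28, edgeR adjusted p = 0.0132) and by 0.65 with AAV-GFP (SE 0.19, adjusted p = 0.0306). The AAV-GFP call was lost without any 1 of vehicle replicates 1, 4 and 5 or AAV-GFP replicates 1 and 3 (log2 fold changes 0.53 to 0.63, highest adjusted p 0.0855). Between the vectors the log2 fold change was 0.40 (SE 0.25, adjusted p = 0.49), which did not pass in edgeR.

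*Herpud1*, a stress-induced membrane protein that helps assemble the HRD1 complex (chr8:94386438-94395377, plus strand), went the other way. Vehicle livers had 601, 797, 603, 525 and 569.9 CPM, AAV-GFP livers 265 to 766 (median 431) and AAV-miR-34b/c livers 213 to 481 (median 429). All AAV-miR-34b/c libraries were below all vehicle libraries, which held for 3.82% of all genes, and replicates 5 (219.9) and 7 (213) were lowest. *Herpud1* fell by 0.75 with AAV-miR-34b/c on the log2 scale (SE 0.21, edgeR adjusted p = 0.02), a call lost without vehicle replicate 2 (-0.65, adjusted p = 0.0546). With AAV-GFP the log2 fold change was -0.37 (SE 0.21, adjusted p = 0.256) and between the vectors -0.40 (SE 0.24, adjusted p = 0.469).

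Of the other degradation genes, *Edem1* and the derlins, none passed in edgeR. *Edem1*, a lectin-like protein that marks misfolded glycoproteins, had medians of 51.1 CPM in vehicle, 56.5 in AAV-GFP and 75.1 in AAV-miR-34b/c livers. The derlins, membrane proteins of the export channel, showed no common shift, with medians of 127, 110.3 and 123 for *Derl1* and of 118, 119 and 112 for *Derl2*. *Derl3* was sparse, from 0 to 21 counts in a library, and its ranges overlapped in every comparison.

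The sensors themselves did not pass in any edgeR comparison, at 0 of 4, a number of genes too small to set apart from the 12.7%, 21.9% and 3.36% of all genes called. An unadjusted p under 0.05 was reached by 2 of them with AAV-miR-34b/c against vehicle and by 0 in the other comparisons, where DESeq2 called 0 throughout and limma-voom called 1 with AAV-miR-34b/c. *Xbp1*, whose spliced and unspliced forms are not told apart by counts per gene, had 75.8 to 164 CPM in vehicle (median 99.1), 84.8 to 171 in AAV-GFP (median 125) and 121 to 198 in AAV-miR-34b/c livers (median 139). *Atf6* had medians of 27.6, 30 and 40.9, *Ern1* of 21, 17.4 and 26.5 and *Eif2ak3* of 10.9, 9.1 and 9.21. Ranges overlapped for all 4. The pair with a low unadjusted p were *Xbp1* and *Atf6* (edgeR adjusted p = 0.103 and 0.107).

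Of the 5 genes of the ATF4 branch, 1 passed in each comparison with vehicle (20%, beside 12.7% and 21.9% of all genes), and 3 of 5 had an unadjusted p under 0.05 in each, as had 2 of the 4 tested between the vectors. *Atf4* itself, which is regulated mostly by translation, had 129 to 242 CPM in vehicle (median 154), 111 to 223 in AAV-GFP (median 156) and 153 to 274 in AAV-miR-34b/c livers (median 168). *Asns* encodes asparagine synthetase (chr6:7675169-7693254, minus strand) and had 17.6, 4.61, 7.53, 9.93 and 1.62 CPM in vehicle, 0.289 to 3.96 (median 2.27) in AAV-GFP and 0.341 to 5.58 (median 3.58) in AAV-miR-34b/c livers, from 1 to 51 counts per library. Vehicle replicate 1 was the highest of all libraries and replicate 5 lay within the range of both AAV groups. *Asns* fell by 2.04 with AAV-GFP (SE 0.51, edgeR adjusted p = 0.0133), and the call was lost without vehicle replicate 1 (-1.56, adjusted p = 0.0726). With AAV-miR-34b/c it was -1.34 (SE 0.50, adjusted p = 0.0615), which passed without vehicle replicate 5 (-1.60, adjusted p = 0.0288).

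*Chac1* encodes an enzyme that degrades glutathione (chr2:119351229-119354381, plus strand) and had 2.07, 2.31, 4.43, 5.09 and 5.25 CPM in vehicle, 0.975 to 7.87 (median 4.27) in AAV-GFP and 2.14 to 22.8 (median 8.72) in AAV-miR-34b/c livers. With AAV-miR-34b/c 6 of 7 libraries exceeded all of vehicle, with replicates 3 (18.9) and 4 (22.8) highest. It rose with AAV-miR-34b/c by 1.56 (SE 0.48, edgeR adjusted p = 0.0282), a call lost without any 1 of vehicle replicates 1 and 2 and AAV-miR-34b/c replicates 3 and 4 (log2 fold changes 1.32 to 1.42, highest adjusted p 0.0754). With AAV-GFP it was 0.32 (SE 0.42, adjusted p = 0.639) and between the vectors 1.22 (SE 0.44, adjusted p = 0.152). *Ddit3*, the cell death factor CHOP, had medians of 4.28, 8.22 and 9.21 CPM from 6 to 67 counts. It shares 68 exonic bases with *Mars* on the opposite strand, which had 2366 counts in total against 497, so its counts are uncertain. *Trib3*, a pseudokinase downstream of CHOP, had medians of 6.22, 8.31 and 3.67 CPM. Neither gene passed in any edgeR comparison. Calls in this branch depended on the tool. Against vehicle edgeR called 1 gene with each vector, *Asns* with AAV-GFP and *Chac1* with AAV-miR-34b/c. DESeq2 called 1 and 2, adding *Asns* with AAV-miR-34b/c, and limma-voom called 2 and 1, adding *Ddit3* with AAV-GFP and calling *Ddit3* in place of *Chac1* (1.36, limma-voom adjusted p = 0.0871) with AAV-miR-34b/c.

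*Sec61a1* encodes the pore of the translocon (chr6:88503579-88518905, minus strand). Vehicle livers had 175, 163, 253, 173 and 217 CPM, AAV-GFP livers 219.8 to 465 (median 277) and AAV-miR-34b/c livers 248 to 586 (median 473). With AAV-miR-34b/c 6 of 7 libraries exceeded all of vehicle, and replicates 1 and 2, a close pair, were the lowest of the group. It rose by 1.16 with AAV-miR-34b/c (SE 0.22, edgeR adjusted p = 0.00202) and was at 0.56 with AAV-GFP (SE 0.19, adjusted p = 0.0599), which passed without vehicle replicate 3 (0.68, adjusted p = 0.0382), AAV-GFP replicate 5 (0.62, adjusted p = 0.0483) or AAV-GFP replicate 6 (0.60, adjusted p = 0.0368). Between the vectors the log2 fold change was 0.59 (SE 0.21, adjusted p = 0.148), which did not pass in edgeR. *Sec61b*, another channel subunit, and *Ssr1*, of the associated TRAP complex, did not pass, with medians of 104, 82.1 and 77.5 and of 85.2, 97.1 and 94.3 CPM.

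**Figure D3:**
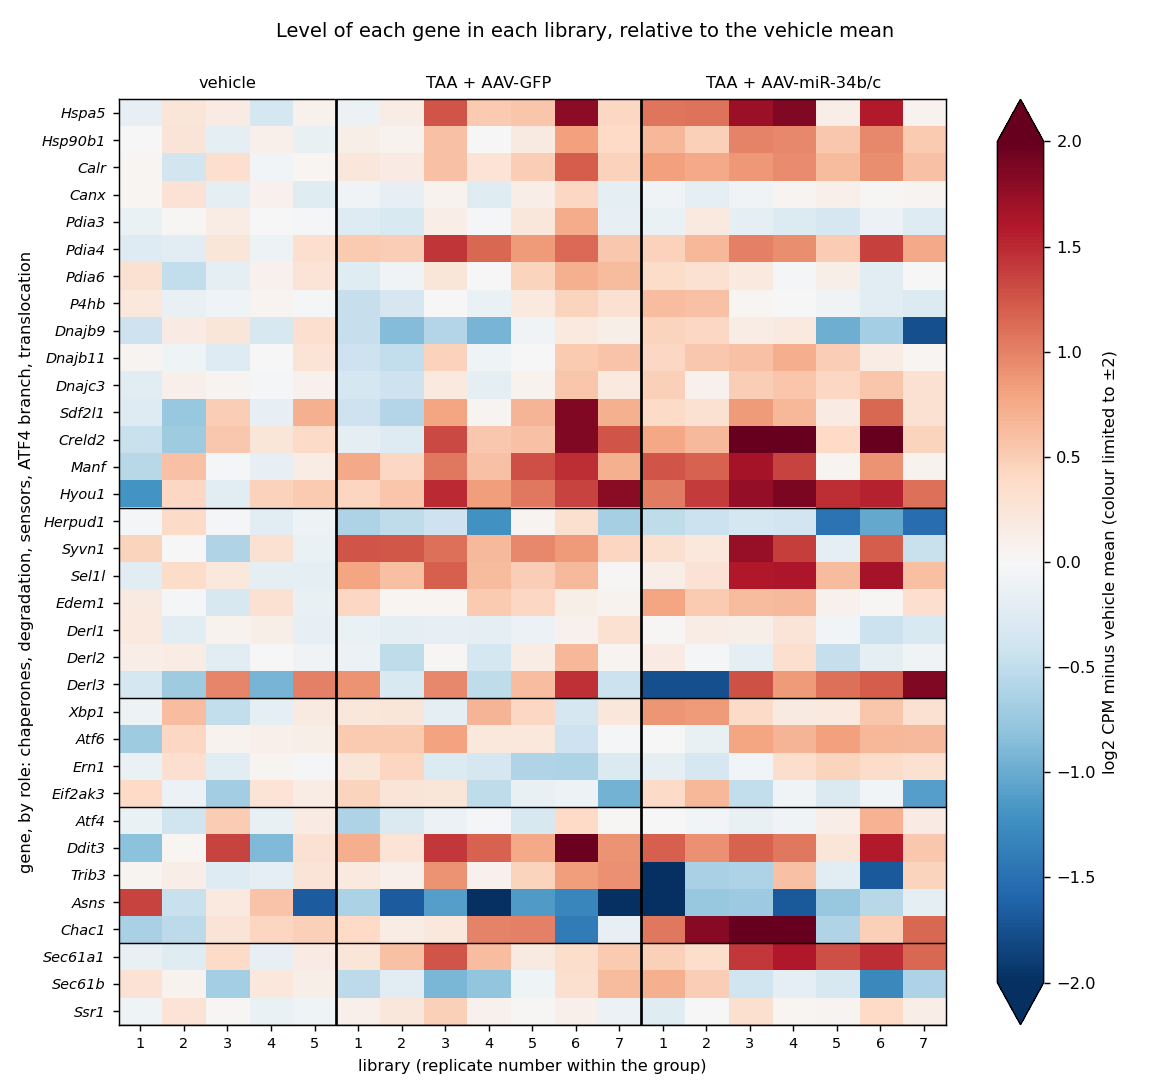
Level of each of the 34 genes (vertical axis, ordered by role) in each of the 19 libraries (horizontal axis, replicate numbers within group), as log2 CPM minus the mean of the vehicle libraries, with red above and blue below. AAV-GFP replicate 6 and AAV-miR-34b/c replicates 3, 4 and 6 have the highest levels of *Hspa5* and *Creld2*, and AAV-miR-34b/c replicates 5 and 7 have the lowest of *Dnajb9* and *Herpud1*.

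Chaperones were next set against the ATF4 branch in each library, as a description with no test. Mean log2 CPM over the 15 chaperones was 7.26 ± 0.14 (SD, n = 5) in vehicle, 7.63 ± 0.40 (n = 7) in AAV-GFP and 7.81 ± 0.28 (n = 7) in AAV-miR-34b/c livers. Over the 5 ATF4 branch genes it was 3.46 ± 0.24, 3.45 ± 0.20 and 3.57 ± 0.40. The chaperone mean was thus higher in both AAV groups than in vehicle, while the ATF4 branch mean averaged genes that differed in direction. Their difference was 3.80 ± 0.25, 4.18 ± 0.33 and 4.24 ± 0.43, a gain over vehicle of 0.37 with AAV-GFP (pooled SD 0.29) and 0.44 with AAV-miR-34b/c (pooled SD 0.35), and of 0.06 between the vectors (pooled SD 0.38). The gain with AAV-GFP rested on *Asns*, a gene of 1 to 51 counts, and that with AAV-miR-34b/c on *Asns* and *Trib3*. With *Asns* left out, an alternative chosen after seeing the data, the other 4 ATF4 branch genes were higher than vehicle by 0.39 with AAV-GFP and 0.41 with AAV-miR-34b/c, beside 0.36 and 0.55 for the chaperones, and the gain was -0.03 (pooled SD 0.28) and 0.14 (pooled SD 0.31). With *Trib3* left out instead, the gain with AAV-miR-34b/c was 0.25 (pooled SD 0.34). Between the vectors the difference was -0.25 (pooled SD 0.36) without *Trib3* and 0.3 (pooled SD 0.4) without *Chac1*. These data therefore do not separate the chaperones from the ATF4 branch. Vehicle replicates overlapped both AAV groups in this difference.

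**Figure D4:**
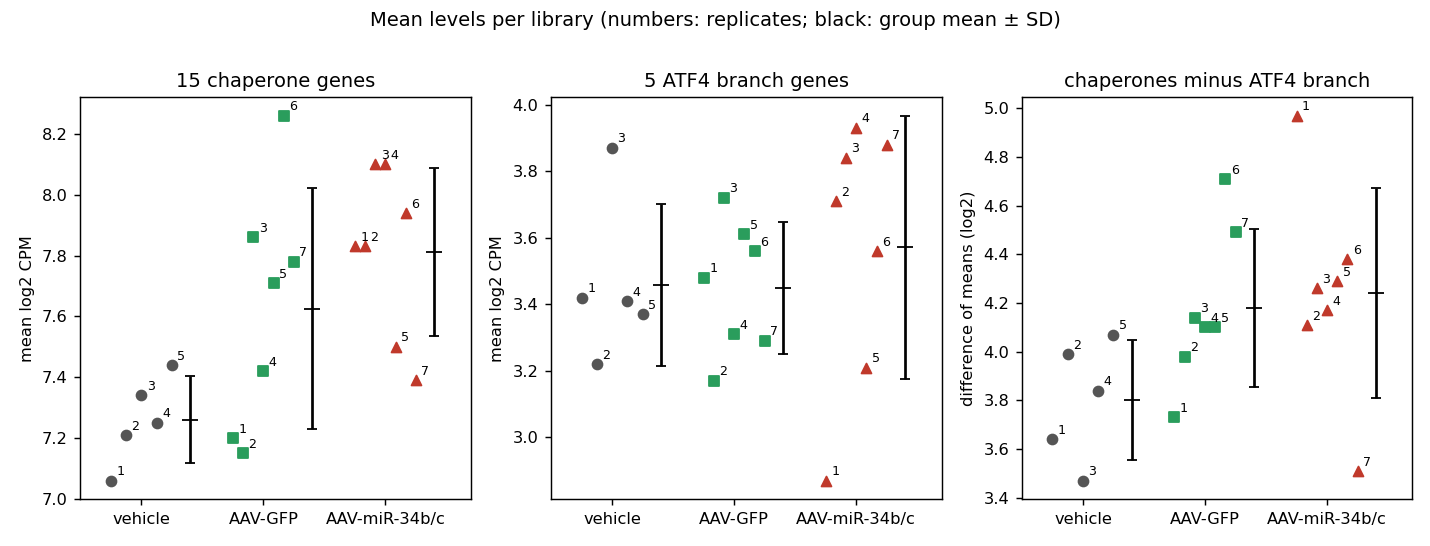
Mean log2 CPM of the 15 chaperones, mean log2 CPM of the 5 ATF4 branch genes and the difference of the means (vertical axes, which do not start at 0) in each library by group (horizontal axis), with replicate numbers beside the points and the group mean ± SD in black. The chaperone mean reaches 8.26 in AAV-GFP replicate 6 and is 7.15 in AAV-GFP replicate 2, which is within the vehicle range.

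The chaperone mean varied more within the AAV groups than in vehicle. AAV-GFP replicate 6 was the highest of its group for 12 of the 15 chaperones and AAV-GFP replicate 2 among the lowest pair for 14 of 15. In the AAV-miR-34b/c group, replicates 5 and 7 had the lowest chaperone means (7.50 and 7.39), and replicates 3 and 4 the highest (8.10 each). Liver programmes outside the ER differed between these libraries and between the groups too. Mean log2 CPM over 21 acute phase genes was 8.84 ± 0.77 in vehicle, 7.95 ± 0.75 in AAV-GFP and 10.48 ± 0.91 in AAV-miR-34b/c livers, where replicates 5 (9.21) and 7 (9.30) were the lowest and replicates 1 (11.47) and 2 (11.38), with chaperone means of 7.83 each, the highest. In the AAV-GFP group, replicate 6, with the highest chaperone mean, had with replicate 7 the lowest acute phase mean (7.36 each), so the order of libraries was not shared between the AAV groups. Vehicle replicates 1 (9.69) and 4 (9.68) were above the other vehicle libraries (8.26 to 8.28). Of the 21 genes, edgeR called 5 lower and none higher with AAV-GFP against vehicle (23.8%). It called 15 higher and none lower with AAV-miR-34b/c (71.4%), and 19 higher and none lower between the vectors (90.5%). Of all genes, 12.7%, 21.9% and 3.36% were called. The mean over 14 circadian clock genes, which peak at different times of day, was 3.55 ± 0.23, 3.31 ± 0.34 and 2.94 ± 0.63, and replicates 5 (3.77) and 7 (3.84) were the highest of the AAV-miR-34b/c group. This mean averages genes of unlike direction, since against vehicle 3 rose and 3 fell with AAV-GFP and 2 rose and 3 fell with AAV-miR-34b/c in edgeR. Those calls were 46.2% and 41.7% of the clock genes tested, beside 12.7% and 21.9% of all genes. The part of either programme in the chaperone levels was not tested.

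Markers of other cells differed between groups too. Summed levels of 7 neutrophil markers were 17.7 to 80.5 CPM in vehicle, 14 to 73.3 in AAV-GFP and 62.8 to 1924 in AAV-miR-34b/c livers, with *Ly6g* at 0 in vehicle. Those of 6 cholangiocyte markers were 18.6 to 40.8, 53.6 to 95 and 49.9 to 119, so that both AAV groups lay wholly above vehicle. Those of 11 macrophage markers were 407 to 773, 428 to 709 and 508 to 961, although 2 of the 11 rose and 5 fell with AAV-GFP against vehicle and 2 rose and 2 fell with AAV-miR-34b/c in edgeR. The shares called, 63.6% and 36.4%, stood beside 12.7% and 21.9% of all genes. Summed levels of 8 endothelial markers were 215 to 260.1, 175 to 239 and 245 to 298. Against vehicle, *Lyve1* rose (1.46) and *Cdh5* fell (-1.25) with AAV-miR-34b/c in edgeR, 28.6% of those tested, beside 21.9%. *Lyve1* also rose between the vectors (1.06). Summed levels of 11 markers of activated hepatic stellate cells were 60.2 to 138, 121 to 286 and 65.8 to 131. Of 8 tested with AAV-GFP against vehicle, 4 rose and none fell in edgeR (50%, beside 12.7% of all genes). With AAV-miR-34b/c edgeR called 0 of 5, beside 21.9%. Between the vectors 2 of 5 fell and none rose (40%, beside 3.36%). For plasma cells and B cells, which also have a large ER, 16 markers summed to 90.6 to 150.2, 134 to 293 and 167 to 271 CPM, with *Tnfrsf17* at 0 in every group and *Cd79a* at 0 in vehicle and AAV-miR-34b/c livers. Of those tested, edgeR called 1 of 5 lower with AAV-GFP, 3 of 5 higher with AAV-miR-34b/c and 0 of 6 between the vectors. Neutrophil markers gave 0 of 2 with AAV-GFP and 3 of 3 higher in each other comparison. Cholangiocyte markers gave 1 of 2 higher in each comparison with vehicle and 0 of 2 between the vectors. Of all genes, 12.7%, 21.9% and 3.36% were called. Of the 11 hepatocyte markers, 1 rose with AAV-GFP against vehicle, 3 rose and 1 fell with AAV-miR-34b/c, and 1 rose between the vectors in edgeR. The shares called, 9.09%, 36.4% and 9.09%, stood beside 12.7%, 21.9% and 3.36% of all genes. *Hnf4a* rose in both comparisons with vehicle (0.86 and 1.21), *Cps1* fell with AAV-miR-34b/c (-0.9) and *Fga* rose between the vectors (1.06). The part of these cells in the results was not tested.

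Genes of the same pathway outside the 34 were read from the same fits, without counts for close pairs summed. Of 28 further folding genes tested, 1 rose and 1 fell with AAV-GFP, 6 rose and 3 fell with AAV-miR-34b/c, and 1 rose between the vectors, with medians of -0.03, 0.10 and 0.11. The shares called were 7.14%, 32.1% and 3.57%, beside 12.7%, 21.9% and 3.36% of all genes. *Cnpy3*, a co-chaperone of GRP94, rose against vehicle by 1.11 with AAV-GFP (SE 0.23, edgeR adjusted p = 0.00415) and by 1.59 with AAV-miR-34b/c (SE 0.28, adjusted p = 0.00137). *Fkbp11*, a prolyl isomerase of secretory cells, fell by 1.12 (SE 0.25, adjusted p = 0.00834) and by 1.06 (SE 0.23, adjusted p = 0.00455). The folding list thus held calls in both directions, with *Lman2* (0.73) and *Dnajc1* (0.56) up and *Tmx4* (-0.75) and *Tmx3* (-0.55) down with AAV-miR-34b/c. The disulfide-forming *Qsox1* rose between the vectors by 0.77 (SE 0.20, edgeR adjusted p = 0.0389).

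Of 25 further degradation genes, 2 rose and 2 fell with AAV-GFP, 4 rose and 3 fell with AAV-miR-34b/c, and 1 fell between the vectors (*Edem2*, -0.53, SE 0.14, edgeR adjusted p = 0.0414). The shares called, 16.0%, 28.0% and 4.0%, were near those of all genes (12.7%, 21.9% and 3.36%). The lectin *Os9* rose by 0.78 and 0.86 and the related lectin *Erlec1* fell by 0.70 and 0.68 with AAV-GFP and AAV-miR-34b/c. *Ubxn4* also rose (0.55 and 0.94) and the ligase *Rnf139* also fell (-0.78 and -0.72), while *Ngly1*, which removes glycans from exported proteins, fell by 1.14 and *Man1a2* rose by 0.75 with AAV-miR-34b/c. Among 29 further translocation and glycosylation genes, 1 rose with AAV-GFP, and 5 rose and 1 fell with AAV-miR-34b/c (3.45% and 20.7%, no higher than the shares of all genes). Between the vectors edgeR called 0 of them (5 at an unadjusted p under 0.05), DESeq2 2 and limma-voom 4. Of all genes there, edgeR called 3.36% and limma-voom 8.79%, and DESeq2 called 572 genes. Calls against vehicle included *Sec63*, a translocon partner, at 0.80 (SE 0.17, edgeR adjusted p = 0.00458), the signal recognition particle subunit *Srp68* at 1.28 (SE 0.30, adjusted p = 0.00701) and the oligosaccharyltransferase *Stt3b* at 0.48 with AAV-miR-34b/c and 0.50 with AAV-GFP, whereas *Ssr4* of the TRAP complex fell by 0.58.

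More ATF4 targets than the 5 above were tested, 24 with AAV-GFP, of which 6 rose and none fell, and 23 with AAV-miR-34b/c, of which 5 rose and none fell. Between the vectors 2 of 22 fell. The share called with AAV-GFP was 25%, beside 12.7% of all genes, whereas with AAV-miR-34b/c it was 21.7%, beside 21.9%, and between the vectors 9.09%, beside 3.36%. *Gdf15*, a stress hormone, rose with AAV-GFP by 2.83 (SE 0.54, edgeR adjusted p = 0.00264) and fell between the vectors by 1.51 (SE 0.35, adjusted p = 0.0195), from 77.1 to 503 CPM in AAV-GFP and 49.2 to 159 in AAV-miR-34b/c livers. *Ppp1r15a*, or GADD34, which directs dephosphorylation of eIF2 alpha, rose by 1.52 (SE 0.33, adjusted p = 0.00688) and fell between the vectors by 1.02 (SE 0.22, adjusted p = 0.0134). The factor *Atf5* rose by 1.36 with AAV-GFP (SE 0.26, adjusted p = 0.00277) and by 1.57 with AAV-miR-34b/c (SE 0.29, adjusted p = 0.00191), and the tRNA synthetases *Tars* (0.79, and 0.57 with AAV-GFP) and *Aars* (0.73) rose with AAV-miR-34b/c. The median log2 fold change of this longer list was 0.26, 0.44 and 0.17 in the 3 comparisons.

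Among the other regulators of the response, 2 of 13 rose and 1 fell with AAV-GFP and 3 of 14 rose and 1 fell with AAV-miR-34b/c, with 0 of 12 between the vectors in edgeR (1 at an unadjusted p under 0.05, DESeq2 0, limma-voom 0). The shares against vehicle were 23.1% and 28.6%, beside 12.7% and 21.9% of all genes, and between the vectors edgeR called 3.36% of all genes. *Atf6b*, the paralogue of *Atf6*, rose by 1.04 (SE 0.23, edgeR adjusted p = 0.00684) and 1.08 (SE 0.22, adjusted p = 0.00317), *Tmbim6*, an inhibitor of IRE1, by 0.78 and 0.62, and *Eif2ak1*, another eIF2 alpha kinase, by 0.70 with AAV-miR-34b/c. *Eif2s1*, which encodes eIF2 alpha, fell by 0.79 and 1.22. For transport between ER and Golgi, 0 of 21 genes rose and 1 fell (*Sec13*, -0.91) with AAV-GFP, and 4 rose and 4 fell with AAV-miR-34b/c, led by *Tmed9* (0.63) upward and *Tmed2* (-0.81) downward (4.76% and 38.1%, beside 12.7% and 21.9%). Between the vectors edgeR called 0 of the 21 (3 at an unadjusted p under 0.05), DESeq2 1 and limma-voom 2. Of all genes there, edgeR called 3.36% and limma-voom 8.79%, and DESeq2 called 572 genes.

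Heat shock genes, which answer mainly to unfolded proteins outside the ER, were read for contrast. Of 15 tested, 3 rose with AAV-GFP, 9 rose with AAV-miR-34b/c and 1 rose between the vectors, and none fell. The shares called were 20%, 60.0% and 6.67%, beside 12.7%, 21.9% and 3.36% of all genes, and the median log2 fold changes were 0.41, 0.59 and 0.28. *Hsp90aa1*, the inducible cytosolic HSP90, rose by 0.85 with AAV-GFP (SE 0.21, edgeR adjusted p = 0.0139) and by 1.47 with AAV-miR-34b/c (SE 0.21, adjusted p = 0.000272). *Hsph1* rose by 0.94 with AAV-GFP and 1.26 with AAV-miR-34b/c, *Bag3* by 0.92 and 1.34, and the mitochondrial chaperonin *Hspd1* (0.76) with AAV-miR-34b/c. *Hspb8*, a small heat shock protein, rose by 1.36 between the vectors (SE 0.20, edgeR adjusted p = 0.000776), with 179.6 to 398 CPM in AAV-GFP and 507 to 1146 in AAV-miR-34b/c livers.

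The members with an ERSE were finally set beside those without a match, as counts with no test. Motif and role cannot be told apart in this split, because most members with an ERSE are chaperones and the others span all roles. With AAV-miR-34b/c against vehicle, 5 of the 9 genes with an ERSE rose and none fell (median log2 fold change 0.78), where 12.2% of all genes were called higher. The 5 that rose are all chaperones. Of the 20 with a window and no match to the spelling searched, 3 rose and 1 fell (median 0.12). Other forms of the element were not searched in these 20. With AAV-GFP the counts were 1 of 9 up (median 0.50), which is close to the 7.54% of all genes called higher, and 2 up and 1 down of 20 (median 0.11). With close pairs summed, no gene with an ERSE passed in either comparison. The members that passed there were *Hyou1* and *Sec61a1* with AAV-miR-34b/c, which have no window, and *Pdia4* with AAV-GFP, whose window has no match to that spelling. Without summing, *Canx*, *Pdia6*, *Syvn1* and *Derl3* carried an ERSE and did not pass with AAV-miR-34b/c, while *Hyou1*, *Manf* and *Sec61a1* rose and have no window here. Of 28 genes outside the list with an ERSE, 6 were tested against vehicle with AAV-miR-34b/c and 1 rose (*Acnat2*, 2.26, SE 0.47, edgeR adjusted p = 0.0039).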

How the data were processed

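Counts per gene of 19 liver libraries were used as the authors deposited them, raw and not pooled. Filtering, trimming, alignment and counting of reads were done upstream in the sequencing provider's pipeline. The submitters' processing notes name STAR and mm10. Only that pipeline as a whole has a stated version. Versions of the aligner and counter, the annotation, the strand used in counting and any molecular identifiers are not given in the sources used here, so counts can include PCR duplicates and reads of overlapping genes. The labels name a 3′ kit and 100 ng of RNA, which differs from the amount in the methods. Symbols came from GENCODE (GRCm38), for 30934 of 31053 genes. Of the 2 entries named *Ddit3*, the longer was used, since the other had no count. No column was without a sample.

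Each comparison was fitted with edgeR 4.0.16 (R 4.3.3) on the counts of its 2 groups (TMM, filterByExpr with minimum count 10 and minimum total 15, quasi-likelihood test, no covariate), and p-values were adjusted by Benjamini-Hochberg over all genes tested, with a threshold of 0.05. Log2 CPM used a prior count of 2. Standard errors were derived from the fitted change and its F statistic. Single genes were also tested by exact permutation. Alternatives were DESeq2 1.42.0, its size factors, library size only, limma-voom (limma 3.58.1) with sample quality weights, 2 other filters, a joint fit of 3 groups, a block for the replicate number, close pairs summed, each library left out and, chosen after seeing the data, each ATF4 branch gene left out of its mean. The fit was tested on simulated data in which every library was drawn independently, so that test does not cover the close pairs. P-values measure the spread between these libraries and treat each as a separate mouse, including those in close pairs. The genes and lists were chosen with earlier results of these data known, so their counts are descriptions. All 34 genes are named. From each other list, up to 3 genes per direction and comparison with the smallest adjusted p are named, and *Acnat2* was chosen after its value was seen. Protein sequences were not used here.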

Additional observations from a re-analysis of the deposited data

Results flagged for a closer look

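In 111 groups of libraries examined for a library that stood apart (34 genes and 3 means in 3 groups), 5 did so by Dixon's criterion at the 95% level, where chance gives about 5.55. *Calr* in AAV-GFP replicate 6 was 10.83 on the log2 CPM scale, above 10.22 in the next library. *Sec61a1* in AAV-GFP replicate 3 was 8.86, above 8.22. In the AAV-miR-34b/c group, *Pdia3* in replicate 2 was 9.25 (next 8.95) and *Atf4* in replicate 6 was 8.10 (next 7.57). *Sec61b* in vehicle replicate 3 was 5.92, below 6.68 in the next library, from 135 counts.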

How the results depend on the processing

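Genes called in AAV-GFP against vehicle numbered 1212, and 2687 with limma-voom, 3088 with the replicate block, 227 with close pairs summed and 689 to 1859 with a library left out (689 without vehicle replicate 4, 728 without vehicle replicate 1, 806 without AAV-GFP replicate 3, 1859 without AAV-GFP replicate 6). The 34 genes gave 6 calls there, 11 with the replicate block (7 up, 4 down), 1 with close pairs summed and 3 to 7 with a library left out (3 without vehicle replicate 1). In AAV-miR-34b/c against vehicle 2037 genes were called, 3839 with limma-voom, 922 with the replicate block, 331 with close pairs summed and 1267 to 2695 with a library left out (1267 without vehicle replicate 4, 1328 without vehicle replicate 1), and members called were 12, 2 with close pairs summed and 9 to 13 with a library left out. Between the vectors the 311 calls (180 up, 131 down) became 624 by library size only (119 up, 505 down), 572 with DESeq2, 813 with limma-voom, 142 with the replicate block, 87 with close pairs summed and 209 to 344 with a library left out, and the 0 members called became 3 with limma-voom and stayed 0 with each library left out. The cause of these shifts was not tested, except that summing pairs leaves fewer samples.

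Replicate numbers did not pair the mice: correlations of same-numbered libraries ranged from -0.284 to 0.277. By library size only, the median log2 fold change of all genes was -0.128 in AAV-miR-34b/c against vehicle (0.016 with TMM) and -0.201 between the vectors (-0.007 with TMM). Of the genes named with fold changes, *Dnajc3* with AAV-GFP turned to -0.04 with limma-voom, -0.13 with the replicate block and -0.06 to 0.12 with a library left out. Between the vectors *Manf* turned to -0.12 by library size only and ranged from -0.05 to 0.20 with a library left out, and *Pdia4* from -0.19 to 0.02. Among all members, 9, 10 and 12 changed sign under some setting in the 3 comparisons, none of them called. With AAV-GFP, *Sec61a1* passed under 5 of 9 other settings, and *Sel1l* (adjusted p = 0.104) and *Syvn1* (adjusted p = 0.0609) lost their call in the joint edgeR fit of 3 groups. With AAV-miR-34b/c, *Dnajc3* lost its call under 5 of 9. Totals of 2214073 to 5208405 counts leave few counts for *Derl3*, *Asns*, *Chac1* and *Ddit3*. The gain of chaperones over the ATF4 branch against vehicle was 0.37 to 0.41 with AAV-GFP and 0.42 to 0.46 with AAV-miR-34b/c under other settings, and 0.29 to 0.45 and 0.32 to 0.56 with a library left out. With AAV-GFP it rested on *Asns*, and with AAV-miR-34b/c on *Asns* and *Trib3*. With *Asns* out of the mean it was -0.03 and 0.14, and with any other of the 5 genes out 0.34 to 0.63 and 0.25 (without *Trib3*) to 0.72. Between the vectors the difference of 0.06 became -0.25 without *Trib3* and 0.3 without *Chac1*.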
